A study of Mus musculus with 27 samples.

Results

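The lungs of BALB/cJ mice were compared with those of C57BL/6J mice, a pair of inbred strains often set against each other for their immune responses. The comparison took the 3 BALB/cJ and the 3 C57BL/6J arrays out of 27 and covered all 20239 genes that the array's probe table names. The study hybridised RNA of the right lung of female mice to Affymetrix Mouse Gene 1.0 ST arrays, with 3 mice for each of 9 inbred strains. All mice of both strains were 11 weeks old, and the labels give no treatment, immune challenge or altered allele. The labels class BALB/cJ as increased in the severity and decreased in the frequency of spontaneous pulmonary adenoma, and C57BL/6J as increased in both.

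As background, BALB/c mice are the textbook example of a strain inclined to type 2 immunity, with interleukin-4, interleukin-13 and antibody-led responses, and C57BL/6 mice of one inclined to type 1 immunity, led by interferon-gamma and macrophage killing. The strains carry different haplotypes of the major histocompatibility complex (MHC), H2-d in BALB/c and H2-b in C57BL/6, and different sets of natural killer receptor genes. A resting lung holds alveolar macrophages, which clear surfactant and inhaled particles, beside type I and type II alveolar epithelium, club and ciliated airway cells, vessels and stroma.

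Each value is the log2 signal of 1 gene on 1 array, so a difference of 1 is a doubling of signal. Arrays correlated at 0.9938 to 0.9947 within BALB/cJ, at 0.9954 to 0.9966 within C57BL/6J and at 0.9872 to 0.9914 between the strains. Lung markers were high in both: the surfactant gene Sftpc read 13.15 to 13.28 in BALB/cJ and 13.29 to 13.35 in C57BL/6J. The 8 measured genes of the Y chromosome, absent from these female mice, read 2.41 to 5.34 over the 6 arrays, which gives a view of the background. The upper end of this range is set by Sry, and the highest value without Sry was 3.69. Where 1 strain read at the background level, the size of a difference is only a minimum. Array run numbers followed the strains, so run order and strain cannot be told apart. The design takes 3 females per strain, so replicates are separate mice. The arrays labelled C57L/J gave a high H2-Ea signal although C57L/J is known to carry the H2-b haplotype. They enter the estimate of spread and the comparison with the other strains. Without them the same 119 genes were called.

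A gene passed at a Benjamini-Hochberg adjusted p under 0.05 in the limma fit and was called when its log2 difference also reached 1. The fit called 119 genes (0.588% of those tested), 42 higher in BALB/cJ (0.208%) and 77 lower (0.380%). Of these, 5 were higher and 11 lower by at least 2. Without a minimum difference, 1361 genes passed (6.72%), 591 higher (2.92%) and 770 lower (3.80%), and 720 of them differed by under 0.5. The count of 591 fell to 315 without BALB/cJ replicate 2 and to 361 without C57BL/6J replicate 2. Over all genes the median difference was 0.05, and 3814 of the 20239 genes had an unadjusted limma p under 0.05. The arrays of the strains did not overlap for any of the 119 called genes, though a call itself selects for such separation. Among all genes, 26.2% had no overlap. Lack of overlap noted below for single genes is to be read beside that share. Likewise, counts of list members that rose or fell are to be read beside the 2.92% and 3.80% of all genes. Probes of this array follow the reference genome, which is that of C57BL/6J, and the table holds 1 value a gene, so a lower transcript amount and a poorer match of BALB/cJ transcripts to the probes cannot be told apart.

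**Figure D1:**
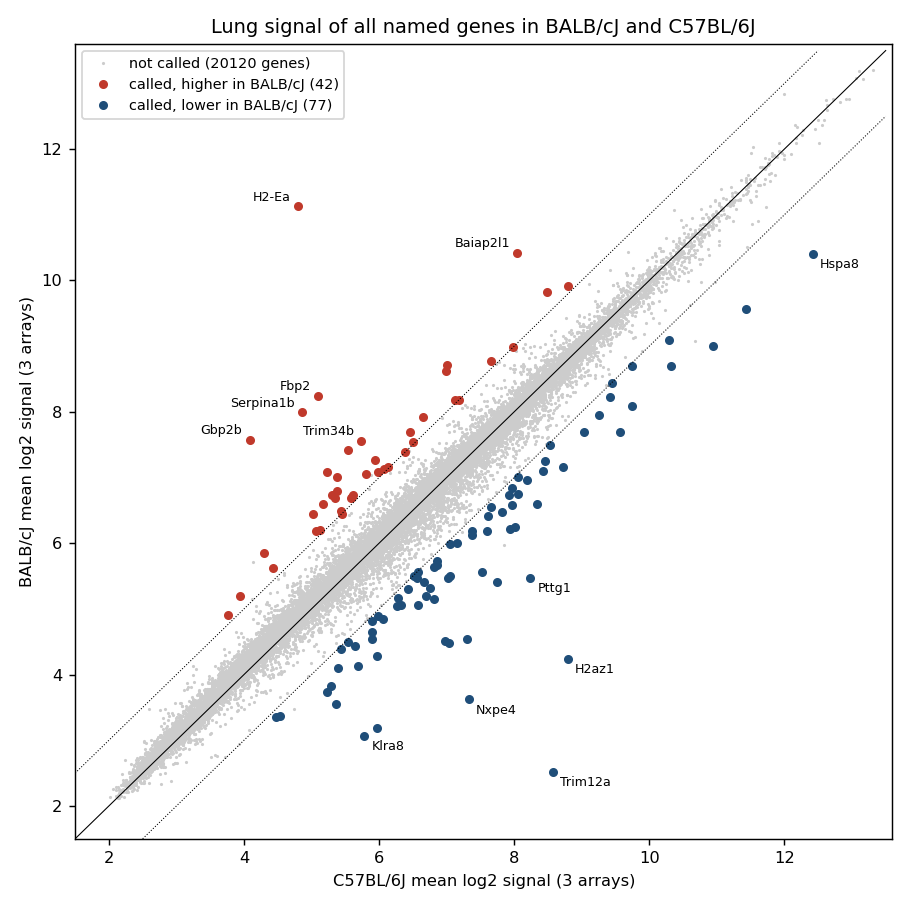
Mean log2 signal of 20239 genes in BALB/cJ (vertical axis) and C57BL/6J (horizontal axis), 3 arrays each; dotted lines mark a log2 difference of 1. The 42 genes called higher in BALB/cJ lie above the upper line and the 77 called lower lie under the lower line, with H2-Ea and Trim12a farthest out.

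The largest difference between the strains was in H2-Ea, the gene for the alpha subunit of I-E, a class II MHC molecule that presents peptides to CD4 T cells. H2-Ea read 11.14, 11.09 and 11.17 in BALB/cJ lungs, against 4.55, 4.85 and 4.98 in C57BL/6J lungs. The strains did not overlap. The C57BL/6J values lie inside the range of the Y-linked genes, but above 3.69, the highest Y-linked value without Sry. The log2 difference was 6.34 (SE 0.12, 81-fold, limma adjusted p = 5.19e-21). As background, the H2-b haplotype is known for a deletion at the start of this gene and makes no I-E, and RefSeq, whose mouse sequence is that of C57BL/6J, lists H2-Ea as a transcribed pseudogene on chromosome 17.

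The other MHC class II and antigen presentation genes that passed the test were lower in BALB/cJ. Of 13 measured members, 8 fell in BALB/cJ (61.5%, against 3.80% of all genes) and H2-Ea alone rose. The list's median difference was -0.45. H2-Ab1, the beta chain of I-A, read 9.05, 9.03 and 9.18 in BALB/cJ and 10.41, 10.33 and 10.11 in C57BL/6J (difference -1.20, SE 0.14, adjusted p = 4.22e-06). H2-Ob, a chain of the H2-O modulator of peptide loading, read 6.59, 6.95 and 6.73 in BALB/cJ against 8.28, 8.0 and 7.90 in C57BL/6J (difference -1.31, SE 0.15, adjusted p = 1.81e-06). Neither gene overlapped between strains. H2-Eb2 fell by 0.75, H2-Aa, the alpha chain of I-A, by 0.50 and Cd74, the invariant chain, by 0.42. H2-Ob, H2-Ab1 and H2-Ea form 1 run of neighbouring called genes on chromosome 17, with 6 measured genes spanned. The count of 8 was 6 or 7 when any array of either strain was left out. In whole lung, fewer cells of a type and less RNA per cell cannot be told apart, here or for the cell types that follow.

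Among 25 MHC class I genes, 5 fell and 2 rose in BALB/cJ, with a median of -0.20. H2-K1, the classical K molecule, read 10.79, 10.22 and 10.51 in BALB/cJ and 11.45, 11.42 and 11.46 in C57BL/6J (difference -0.94, SE 0.14, adjusted p = 7.16e-05). H2-Q9, a gene of the Qa-2 group, read 6.78, 6.50 and 6.52 in BALB/cJ against 8.32, 8.48 and 8.23 in C57BL/6J, a difference of -1.74 (SE 0.25, adjusted p = 5.47e-05), and H2-Q6 fell by 0.96. Cd1d2, a CD1 lipid-presenting molecule, read 5.96, 5.45 and 5.39 in BALB/cJ and 4.76, 5.04 and 4.89 in C57BL/6J, a rise of 0.70. All 4 of these genes were apart between the strains. Class I genes are close copies of each other and polymorphic, so the assignment of signal to single members is uncertain. The count of lower members was 3 without C57BL/6J replicate 1.

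Receptors of natural killer cells differed gene by gene. Klra8, which encodes the activating receptor Ly49H that binds a cytomegalovirus protein and is known to be missing from BALB/c, read 2.83, 3.45 and 2.92 in BALB/cJ, against 5.71, 6.32 and 5.32 in C57BL/6J. The BALB/cJ values lie at the Y-linked level and do not reach the lowest C57BL/6J array (difference -2.71, SE 0.24, adjusted p = 4.35e-08). Klrb1c, which carries the NK1.1 antigen of C57BL/6, read 2.91, 3.31 and 3.23 in BALB/cJ against 3.94, 4.16 and 4.11 in C57BL/6J (difference -0.92, SE 0.17, adjusted p = 6.82e-04). Klrb1b, an inhibitory receptor for Clr-b, fell by 1.24 and Klra2 by 0.93. Klrb1c and Klra2 read inside the range of the Y-linked genes on every array of both strains, so their differences are between dim signals. In the whole list of 26 genes, 5 fell and 1 rose, with a median of -0.08, and sequence similarity among Ly49 genes leaves the split between members uncertain. Markers of the cells themselves did not pass. Ncr1 differed by 0.17 (adjusted p = 0.686). Of 15 cytotoxic effector genes 0 passed in limma and 1 had an unadjusted p under 0.05, beside 3814 of all 20239 genes. Prf1, the perforin gene, differed by 0.34 (adjusted p = 0.22).

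The SLAM family, receptors by which lymphocytes and killer cells contact each other and which come in strain haplotypes, had 4 of 9 members lower and 1 higher, with a median of -0.39. Slamf7 read 5.83, 6.06 and 6.16 in BALB/cJ and 6.55, 6.59 and 6.61 in C57BL/6J (difference -0.57, SE 0.14, adjusted p = 0.00907), and Slamf6 rose by 0.56. The count of lower members was 1 without BALB/cJ replicate 1 or C57BL/6J replicate 2, and 2 without C57BL/6J replicate 1 or 3. Slamf6 missed the threshold without BALB/cJ replicate 2 or 3 (limma adjusted p = 0.18 and 0.0612). It also missed it without C57BL/6J replicate 1 or 3 (0.0567 and 0.0871). Among 13 genes of the Ly6 family, 4 fell and 1 rose. Ly6d, a surface protein of epithelium and B cell precursors, read 6.09, 6.12 and 6.45 in BALB/cJ and 8.27, 7.71 and 7.84 in C57BL/6J (difference -1.72, SE 0.15, adjusted p = 6.31e-08). Ly6i, a monocyte gene, fell by 1.22, Ly6e by 0.61, and Gpihbp1, which anchors lipoprotein lipase to capillaries, rose by 0.66.

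In the resting lungs Il4, Il13 and Ifng did not pass, whereas type 2 immunity genes fell in BALB/cJ at a higher share than all genes. Of 44 type 2 genes, 5 fell in BALB/cJ (11.4%, against 3.80% of all genes) and 1 rose (2.27%, against 2.92%). The median was 0.07, beside 0.05 over all genes. An unadjusted limma p under 0.05 was found for 16 of the 44, beside 3814 of all 20239 genes. The cytokines of the textbook contrast had low signal, between 4.15 and 5.20 on the 6 arrays for Il4, Il13 and Ifng, and overlapped between strains. Il4 read 4.45, 4.55 and 4.38 in BALB/cJ and 4.44, 4.27 and 4.44 in C57BL/6J (difference 0.08, adjusted p = 0.73), Il13 differed by 0.09 (adjusted p = 0.711) and Ifng by 0.15 (adjusted p = 0.527). The members that fell were Ccl17, Ccl22, Il33, Chil3 and Siglecf, of which the last 2 are also alveolar macrophage genes. Ccl17 and Ccl22, chemokines that draw CCR4-bearing T cells, fell by 0.85 and 0.78. Ccl17 read 5.46, 5.59 and 5.53 in BALB/cJ, under every C57BL/6J array at 6.69, 6.07 and 6.38 (adjusted p = 9.82e-04). Il33, an alarmin of type II alveolar cells, fell by 0.50 (SE 0.14, adjusted p = 0.0316). Ccr4, the receptor of both chemokines, was the member that rose, by 0.50. The count of 5 was 3, and that of 1 was 0, without BALB/cJ replicate 2. Of 27 type 1 genes, Havcr2 and Il18r1 fell by 0.39 and 0.28 (7.41%, against 3.80% of all genes) and 0 rose, with a median of 0.07. The count of 2 was 0 or 1 whichever array of either strain was left out. An unadjusted p under 0.05 was found for 6 of the 27.

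Lymphocyte lineage genes did not pass. In limma 0 of 23 T cell genes, 0 of 18 B cell genes and 0 of 17 immunoglobulin and plasma cell genes reached the threshold, with 2, 0 and 3 at an unadjusted p under 0.05 and medians of 0.06, -0.02 and 0.14. Over all genes 3814 of 20239 lay under that unadjusted p. With array weights 2 T cell genes fell and 1 immunoglobulin gene rose. Cd8b1 read 5.97, 6.54 and 6.05 in BALB/cJ and 6.70, 6.26 and 6.63 in C57BL/6J, which overlap. The B cell list varied among mice of 1 strain: its per-array level, the median over members of signal minus the mean of the 6 arrays, ran from -0.25 to 0.35 in BALB/cJ and from -0.10 to 0.26 in C57BL/6J.

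The largest difference among interferon-inducible GTPases was in Gbp2b, a guanylate-binding protein of the kind by which interferon-gamma disrupts the vacuoles of intracellular parasites. It read 7.72, 7.48 and 7.53 in BALB/cJ lungs, against 4.06, 4.10 and 4.09 in C57BL/6J lungs, with no overlap (difference 3.49, SE 0.12, 11.3-fold, adjusted p = 1.15e-15). Igtp, an immunity-related GTPase of the same pathway, read 7.36, 7.31 and 7.22 in BALB/cJ and 7.95, 8.70 and 7.97 in C57BL/6J (difference -0.91, SE 0.25, adjusted p = 0.0231). The high C57BL/6J value came from replicate 2. The bases before both gene starts are shown because these interferon-inducible GTPases differ in opposite directions. They are of the C57BL/6J reference (RefSeq, GRCm38.p6), both on the plus strand, at chr3:142594597-142594846 for Gbp2b and chr11:58199306-58199555 for Igtp. Capitals mark the interferon-stimulated response element (GAAA, any 2 bases, GAAA, searched on both strands), 137 and 34 bases before the start, on the minus strand in Gbp2b.
Gbp2b: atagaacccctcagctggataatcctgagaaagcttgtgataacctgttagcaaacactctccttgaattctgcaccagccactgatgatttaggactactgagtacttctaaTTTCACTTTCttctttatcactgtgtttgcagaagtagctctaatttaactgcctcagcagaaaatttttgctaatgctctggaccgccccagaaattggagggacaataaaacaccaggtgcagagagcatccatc
Igtp: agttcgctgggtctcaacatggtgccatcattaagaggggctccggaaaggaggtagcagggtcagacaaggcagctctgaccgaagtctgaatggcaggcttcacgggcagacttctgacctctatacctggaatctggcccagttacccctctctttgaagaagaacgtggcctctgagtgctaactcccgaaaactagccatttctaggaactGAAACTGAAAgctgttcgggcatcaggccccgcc
In windows from 250 bases before to 50 after the gene start, 3.44% of 32851 hold these letters, as do 8 of the 9 listed GTPases that have a window. A match is a description and not a shown binding site.

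Of the 16 interferon-inducible GTPases, 3 fell, Gbp2b rose, and the median was -0.30. Gbp2 and Irgm2 fell with Igtp, by 0.64 and 0.88. Per-array levels of the list were -0.22 to -0.10 in BALB/cJ and -0.04 to 0.54 in C57BL/6J, the highest being C57BL/6J replicate 2. The 3 lower members missed the threshold without that replicate (adjusted p = 0.187 for Igtp, 0.219 for Irgm2 and 0.296 for Gbp2), and the count was also 0 without BALB/cJ replicate 1, 2 or 3. Of 32 antiviral genes 2 fell (6.25%, near the 3.80% of all genes), with a median of -0.09. Bst2, or tetherin, which holds budding virus at the cell surface, read 7.55, 7.72 and 7.57 in BALB/cJ and 8.50, 8.56 and 8.17 in C57BL/6J (difference -0.79, SE 0.11, adjusted p = 3.97e-05). Ifit3 fell by 0.71 (adjusted p = 0.0389). The count of 2 was 1 without any BALB/cJ array and without C57BL/6J replicate 1 or 2. Outside that list, Apobec3, a cytidine deaminase that restricts retroviruses, read 6.94, 6.88 and 7.05 in BALB/cJ and 8.28, 8.12 and 8.19 in C57BL/6J (difference -1.24, SE 0.10, adjusted p = 1.81e-08).

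A pair of innate gene clusters known to vary in gene content between strains stood out. On chromosome 7, in the cluster of Trim genes related to the retroviral restriction factor TRIM5, Trim12a read 2.48, 2.64 and 2.44 in BALB/cJ, against 8.37, 8.85 and 8.49 in C57BL/6J. The BALB/cJ arrays lie at the Y-linked level (difference -6.05, SE 0.15, 66.3-fold, adjusted p = 1.42e-18). Its neighbour Trim30d read 3.04, 3.52 and 3.0 in BALB/cJ against 6.05, 6.08 and 5.80 in C57BL/6J (difference -2.79, SE 0.14), whereas Trim34b, also next to them, read 7.56, 7.40 and 7.72 in BALB/cJ against 6.06, 5.44 and 5.69 in C57BL/6J (difference 1.83, SE 0.31, adjusted p = 3.03e-04). On chromosome 1, in the Ifi200 cluster of DNA-sensing proteins, Ifi213, Ifi209 and Ifi208 are neighbours and fell by 1.70, 1.56 and 1.26, with no overlap of arrays. Ifi202b, a decoy of the same family that opposes the AIM2 inflammasome, rose by 0.88 and read 4.09, 4.30 and 3.99 in BALB/cJ and 3.25, 3.38 and 3.10 in C57BL/6J (adjusted p = 5.63e-04). All of these Ifi202b values lie inside the range of the Y-linked genes, so the difference is between dim signals. In the Ifi200 cluster as a whole 4 of 10 fell and 1 rose, and in the Trim cluster 2 of 10 fell and 2 rose, with 1 higher without any BALB/cJ array and without C57BL/6J replicate 1 or 3.

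Sensing and soluble defence genes gave single differences in place of a shared direction. Among 31 pattern recognition receptors 2 rose and 2 fell (6.45% each, against 2.92% and 3.80% of all genes), with a median of -0.03. Tlr6, which pairs with TLR2 to detect diacylated lipopeptides, read 6.48, 6.86 and 6.71 in BALB/cJ and 5.53, 5.79 and 5.42 in C57BL/6J (difference 1.11, SE 0.13, adjusted p = 6.17e-06). Ly96, the MD-2 partner of TLR4, fell by 0.72 (adjusted p = 0.00374) and Tlr11 rose by 0.49, and the count of lower members was 1 without BALB/cJ replicate 1. Il1a, an alarm cytokine, read 6.38, 6.47 and 6.51 in BALB/cJ, above every C57BL/6J array at 5.22, 4.90 and 4.94 (difference 1.43, SE 0.18, adjusted p = 1.25e-05). Of 26 complement genes, 3 fell (11.5%) and 1 rose (3.85%), among them Hc, complement component C5, which fell by 0.66, and its receptor C5ar1, which fell by 0.42. The count of 3 was 1 without BALB/cJ replicate 1 or 2 or C57BL/6J replicate 1 or 2. Chemokines and their receptors had 2 of 38 members in each direction (5.26% each, near the shares of all genes), with 1 lower without BALB/cJ replicate 1 or 2 or C57BL/6J replicate 1 or 3. Ppbp, a platelet chemokine, fell by 1.62 (SE 0.44, adjusted p = 0.0237), with 8.81, 8.06 and 9.24 in BALB/cJ and 10.58, 9.95 and 10.44 in C57BL/6J. Platelet genes, a separate list, were lower in 3 of 13 cases (23.1%, against 3.80% of all genes) and higher in 0. Of their differences 12 were negative, and the median was -0.34. Tubb1 and Itgb3 fell by 1.04 and 0.42. The count of 3 was 1 without BALB/cJ replicate 1 or C57BL/6J replicate 1 or 3.

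**Figure D2:**
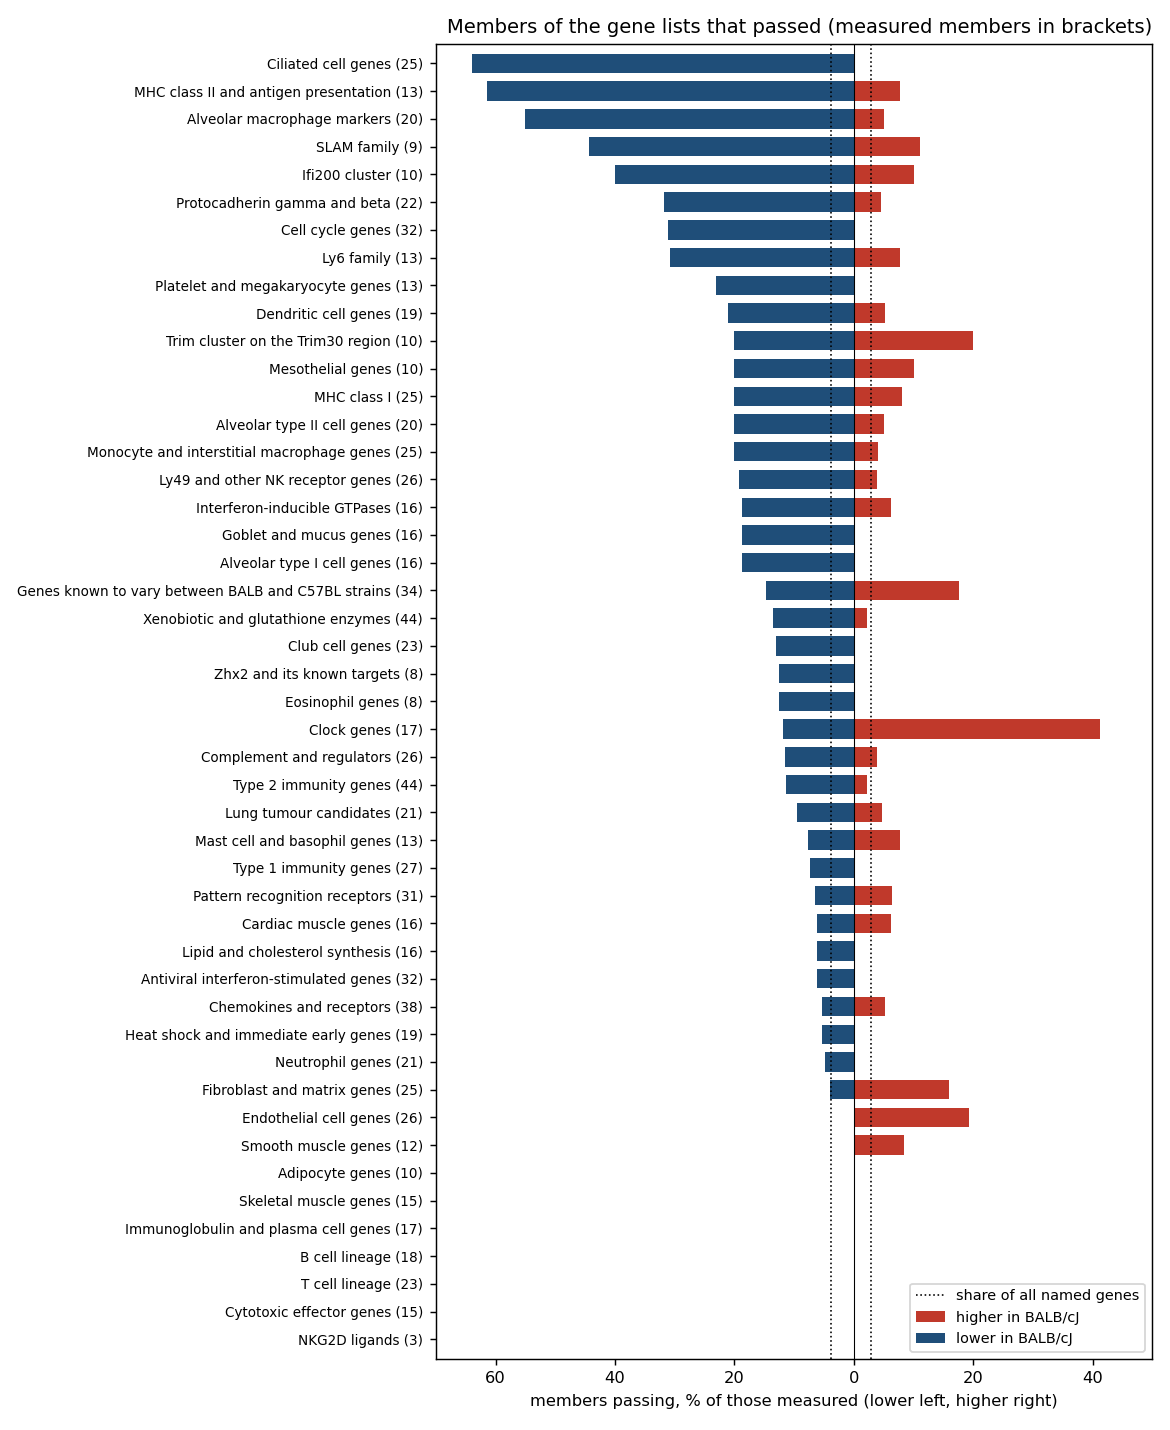
Share of measured members of each gene list that passed, higher in BALB/cJ to the right and lower to the left, with the number measured in brackets. Dotted lines mark all genes, 2.92% higher and 3.80% lower; ciliated, MHC class II and alveolar macrophage genes reach 64%, 61.5% and 55% on the lower side, and clock genes 41.2% on the higher side.

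Of 20 measured markers of alveolar macrophages, 11 fell in BALB/cJ (55%, against 3.80% of all genes) and 1 rose, and the median difference was -0.46. Chil3, the chitinase-like protein Ym1 that these cells secrete, read 9.14, 8.37 and 9.52 in BALB/cJ and 10.95, 10.81 and 11.06 in C57BL/6J (difference -1.93, SE 0.20, adjusted p = 5.55e-07). Krt79, a keratin transcribed by mouse alveolar macrophages, read 6.36, 6.26 and 6.79 in BALB/cJ and 7.86, 7.80 and 7.82 in C57BL/6J (difference -1.35, SE 0.11, adjusted p = 1.81e-08). Marco, a scavenger receptor for inhaled particles, read 5.92, 5.54 and 5.04 in BALB/cJ against 6.47, 6.48 and 6.62 in C57BL/6J (difference -1.02, SE 0.19, adjusted p = 8.77e-04). Siglecf, the sialic acid-binding receptor used to sort these cells, fell by 0.54. These 4 genes did not overlap between strains, and the lowest array of all 6 was BALB/cJ replicate 2 for Chil3, Krt79 and Siglecf. The per-array level of the list was -0.42 to -0.00 in BALB/cJ and 0.15 to 0.30 in C57BL/6J. The count of 11 was 8 without BALB/cJ replicate 2. Pparg, the transcription factor of this lineage, differed by -0.18 with overlapping arrays (adjusted p = 0.395), and Mrc1, its mannose receptor, by -0.28 (adjusted p = 0.199).

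Other myeloid cells gave smaller counts. Monocyte and interstitial macrophage genes fell in 5 of 25 cases and rose in 1, with a median of -0.20, and in 3 cases without BALB/cJ replicate 2 or C57BL/6J replicate 1 or 3. Cd14, the lipopolysaccharide co-receptor, read 6.48, 6.40 and 6.73 in BALB/cJ and 7.39, 7.13 and 7.28 in C57BL/6J (difference -0.73, SE 0.13, adjusted p = 6.29e-04), and Fcgr3, an activating antibody receptor, fell by 0.64. Of 19 dendritic cell genes 4 fell, among them Cd209a by 0.63, and of 21 neutrophil genes Lcn2 alone fell, by 0.58. Ngp, a neutrophil granule gene, differed by -1.08 but its BALB/cJ arrays of 4.89, 5.13 and 6.51 overlap those of C57BL/6J at 6.92, 6.18 and 6.68 (adjusted p = 0.0943). In mast cell and basophil genes Kit rose by 0.43 and Hdc, the histamine-forming enzyme, fell by 0.47. Eosinophil genes included 1 change among 8, Siglecf, which alveolar macrophages share, and Epx, the eosinophil peroxidase, read 4.21 to 4.41 in BALB/cJ and 3.89 to 4.32 in C57BL/6J.

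Of 25 measured ciliated cell genes, 16 fell in BALB/cJ (64%, against 3.80% of all genes), 0 rose, and 23 of 25 differences were negative, with a median of -0.46. Cdhr3, a cadherin of ciliated airway cells, read 7.78, 7.89 and 7.95 in BALB/cJ and 8.55, 8.99 and 8.73 in C57BL/6J (difference -0.88, SE 0.11, adjusted p = 1.24e-05). Dnah11, a heavy chain of the outer dynein arm, read 6.26, 6.33 and 6.27 in BALB/cJ against 6.95, 7.17 and 7.05 in C57BL/6J (difference -0.77, SE 0.11, adjusted p = 4.92e-05). Hydin, of the central pair of the axoneme, fell by 0.66. None of these 3 overlapped. Foxj1, the transcription factor of motile ciliogenesis, differed by -0.36 and missed the threshold (adjusted p = 0.0748). The list's per-array level was -0.32 to -0.17 in BALB/cJ and 0.15 to 0.30 in C57BL/6J. Without BALB/cJ replicate 1 the count was 10.

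**Figure D3:**
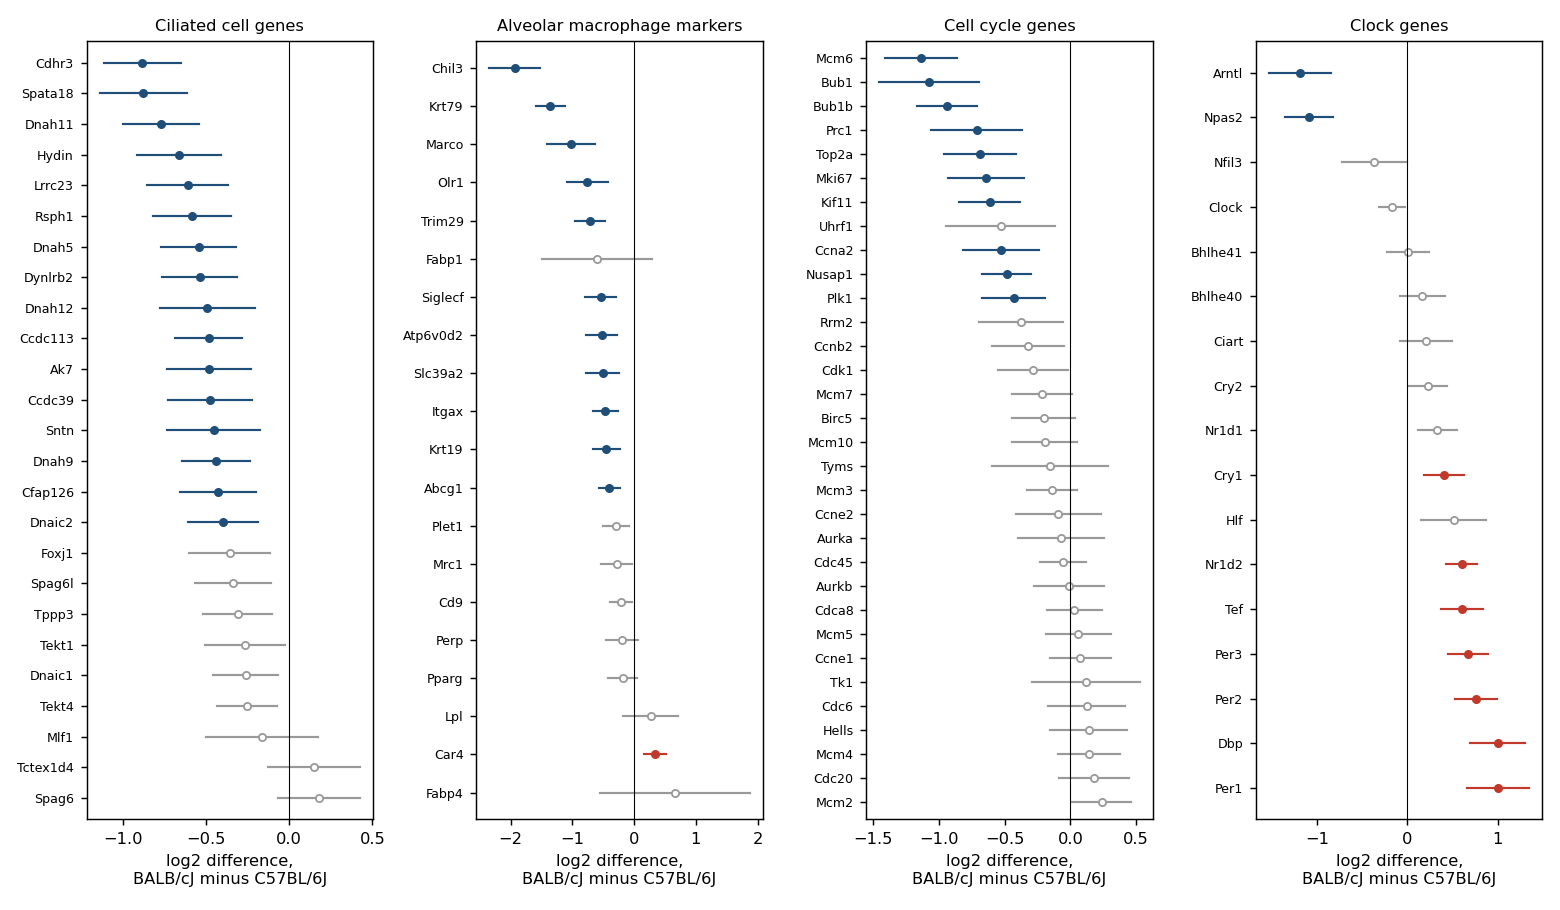
Log2 difference of each measured member of 4 lists, BALB/cJ minus C57BL/6J, with 95% intervals from the limma fit; filled points passed, open points did not. In the ciliated list 16 of 25 members passed on the lower side, and in the clock list 7 passed on the higher and 2 on the lower side.

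In the rest of the epithelium the main secretory markers did not differ by the test. Sftpc differed by -0.11 (adjusted p = 0.438) and the club cell secretoglobin Scgb1a1 by -0.15 (adjusted p = 0.321). Of 20 type II cell genes 4 fell and Lyz1, a lysozyme, rose. Lyz1 read 12.84, 12.72 and 12.97 in BALB/cJ, above all C57BL/6J arrays at 11.93 to 12.07 (difference 0.84, SE 0.11, adjusted p = 1.46e-05). Scd1, a fatty acid desaturase, fell by 0.70. The count of 4 was 2 without BALB/cJ replicate 1 or 2 or C57BL/6J replicate 1 or 2. Among 16 type I cell genes 3 fell, led by Rtkn2 with 8.55, 8.58 and 8.58 in BALB/cJ and 9.44, 9.55 and 9.21 in C57BL/6J (difference -0.83, SE 0.16, adjusted p = 0.00124). Club cell genes fell in 3 of 23 cases (13%, against 3.80% of all genes), Scgb3a2 by 0.64, and in 1 case without BALB/cJ replicate 1 or C57BL/6J replicate 3. Goblet and mucus genes fell in 3 of 16 cases, with Bpifb1, a secreted airway protein, at 7.72, 8.02 and 8.51 in BALB/cJ and 9.62, 9.92 and 9.67 in C57BL/6J (difference -1.66, SE 0.30, adjusted p = 7.75e-04), and Muc4, a membrane mucin, lower by 0.85. Cftr, the airway chloride channel, read 7.88, 7.84 and 8.06 in BALB/cJ and 6.49, 6.85 and 6.61 in C57BL/6J (difference 1.28, SE 0.14, adjusted p = 1.73e-06).

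Of 26 endothelial genes 5 rose (19.2%, against 2.92% of all genes) and 0 fell, with a median of 0.10, beside 0.05 over all genes. Gpihbp1 read 9.45, 9.35 and 9.49 in BALB/cJ and 8.82, 8.60 and 8.86 in C57BL/6J, and Aplnr, the apelin receptor, rose by 0.62. Of 25 fibroblast and matrix genes 4 rose and 1 fell, with a median of 0.13. Fn1, fibronectin, read 11.05, 11.23 and 10.95 in BALB/cJ and 10.35, 10.32 and 10.41 in C57BL/6J (difference 0.72, SE 0.12, adjusted p = 3.79e-04), and Pi16 rose by 0.54. Ccn2, the connective tissue growth factor, read 10.04, 9.91 and 9.82 in BALB/cJ against 8.75, 8.75 and 8.92 in C57BL/6J (difference 1.12, SE 0.16, adjusted p = 3.73e-05). The strains did not overlap for Gpihbp1, Fn1 or Ccn2. The endothelial count was 3 without BALB/cJ replicate 3 or C57BL/6J replicate 2, and the matrix count was 2 without replicate 2 of either strain.

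Of 32 cell division genes, 10 fell in BALB/cJ (31.2%, against 3.80% of all genes) and 0 rose, 22 did not pass, with a median of -0.20. Mcm6, a subunit of the replicative helicase, read 6.90, 6.99 and 6.62 in BALB/cJ and 7.83, 8.03 and 8.06 in C57BL/6J (difference -1.14, SE 0.13, adjusted p = 2.96e-06). Bub1, a kinase of the spindle checkpoint, read 4.91, 4.77 and 4.76 in BALB/cJ against 5.84, 6.05 and 5.79 in C57BL/6J (difference -1.08, SE 0.18, adjusted p = 3.86e-04), and its partner Bub1b fell by 0.94. Mki67, the proliferation antigen, fell by 0.64 and Top2a, the topoisomerase of dividing cells, by 0.69. The groups did not overlap for any of these 5 genes, a separation that 26.2% of all genes had. The other Mcm helicase genes Mcm2 to Mcm5 and Mcm7 did not pass, with differences from -0.22 to 0.24.

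Genes of the circadian clock differed in both arms of the cycle. In this feedback loop BMAL1 (gene Arntl) with CLOCK or NPAS2 activates the Per, Cry and Rev-erb genes and output factors such as Dbp, and the products of those genes repress Arntl and the activity of its protein. Of 17 measured members 7 rose in BALB/cJ (41.2%, against 2.92% of all genes) and 2 fell. The 2 were the activators. Arntl read 6.28, 6.02 and 6.23 in BALB/cJ and 7.49, 7.42 and 7.20 in C57BL/6J (difference -1.19, SE 0.17, adjusted p = 4.06e-05). Npas2 read 5.18, 4.71 and 4.79 in BALB/cJ against 6.08, 5.97 and 5.90 in C57BL/6J (difference -1.09, SE 0.13, adjusted p = 4.18e-06). Those that rose were repressors and outputs. Per1 read 7.41, 7.27 and 7.50 in BALB/cJ and 6.26, 6.52 and 6.37 in C57BL/6J (difference 1.01, SE 0.17, adjusted p = 2.64e-04). Dbp read 8.91, 9.26 and 8.80 in BALB/cJ against 7.75, 8.07 and 8.14 in C57BL/6J (difference 1.00, SE 0.15, adjusted p = 6.66e-05). None of these 4 genes overlapped between the strains. Per2 and Per3 rose by 0.76 and 0.67, and Nr1d2, which encodes Rev-erb beta, by 0.60, while Clock differed by -0.17 (adjusted p = 0.179). The labels do not give the hour at which lungs were taken, and its part in these differences was not tested.

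The bases before the Per1 start and around the Arntl match show the letters through which this loop is known to act. They are of the C57BL/6J reference (RefSeq, GRCm38.p6), on the plus strand, at chr11:69098699-69098948 for Per1 and chr7:113207528-113207557 for Arntl. Capitals mark the E-box CACGTG in Per1, 166 bases before its start, and the ROR element (AA, any base, T, any base, GGTCA) in Arntl, 27 bases after its start.
Per1: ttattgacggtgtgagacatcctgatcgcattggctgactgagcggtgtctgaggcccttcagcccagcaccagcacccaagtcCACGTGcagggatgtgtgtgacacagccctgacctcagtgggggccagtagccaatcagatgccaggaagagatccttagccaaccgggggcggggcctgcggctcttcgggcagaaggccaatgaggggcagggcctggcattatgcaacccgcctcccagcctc
Arntl: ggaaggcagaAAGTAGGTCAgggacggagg
The E-box letters occur in 7.15% of 32851 windows and in 5 of the 15 listed clock genes that have a window, 3 of them passers (Cry1, Per1 and Tef). The ROR letters, searched on both strands as the E-box was, occur in 0.606% of windows and in Arntl alone among the listed genes. Both are matches of letters and show no binding.

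Several of the largest differences were in genes not yet described. Fbp2, a gluconeogenic enzyme of muscle, read 8.32, 8.09 and 8.33 in BALB/cJ and 5.20, 5.19 and 4.90 in C57BL/6J (difference 3.15, SE 0.14, 8.85-fold, adjusted p = 1.10e-13). Baiap2l1, an adaptor that shapes actin at the membrane, read 10.45, 10.29 and 10.53 in BALB/cJ against 8.01, 8.11 and 8.01 in C57BL/6J (difference 2.38, SE 0.11, adjusted p = 4.81e-13). Gatm, which begins creatine synthesis, rose by 1.87, Abca17, a lipid transporter, by 1.86 and Armcx4 by 1.71. Myh7, the slow myosin heavy chain, read 8.60, 8.72 and 8.55 in BALB/cJ and 6.87, 7.10 and 7.0 in C57BL/6J (difference 1.63, SE 0.13), whereas Actc1, cardiac actin, fell by 0.97 and the other 14 of 16 cardiac muscle genes did not pass. Serpina1b, an alpha-1 antitrypsin gene with close copies beside it, read 8.04, 7.81 and 8.13 in BALB/cJ against 5.01, 3.52 and 6.05 in C57BL/6J. Its C57BL/6J arrays scatter over more than 2 log2 units, and the difference of 3.13 (adjusted p = 0.0094) became 2.46 (adjusted p = 0.0898) without C57BL/6J replicate 2.

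Lower in BALB/cJ were Nxpe4, with 3.47, 3.68 and 3.72 in BALB/cJ and 7.27, 7.38 and 7.32 in C57BL/6J (difference -3.70, SE 0.12, adjusted p = 1.87e-16), and Pttg1, the securin that holds back chromosome separation. Pttg1 read 5.35, 5.63 and 5.44 in BALB/cJ against 8.22, 8.25 and 8.23 in C57BL/6J (difference -2.76, SE 0.13, adjusted p = 4.51e-13). Sox11, a transcription factor of development, read 5.32, 5.54 and 5.37 in BALB/cJ against 7.79, 7.85 and 7.59 in C57BL/6J (difference -2.33, SE 0.18). Glp1r, the receptor of the hormone GLP-1, read 7.75, 8.0 and 7.34 in BALB/cJ against 9.63, 9.50 and 9.56 in C57BL/6J (difference -1.87, SE 0.15). Several of the largest differences concern genes of abundant transcripts: H2az1, a histone variant, fell by 4.56, the ribosomal protein genes Rpl29, Rps6 and Rps2 by 2.56, 2.47 and 1.86, and the chaperone Hspa8 by 2.02. RefSeq lists 5, 4 and 12 entries named as pseudogenes of Rpl29, Rps6 and Rps2, so signal of near-identical copies may be assigned to these symbols and their values are uncertain. For H2az1 and Hspa8 it lists 0 so named. The count covers only entries named after the gene, and near-identical copies under other names were not looked for. The H2az1 mean was 4.24 in BALB/cJ, inside the range of the Y-linked genes, and 8.80 in C57BL/6J, with 6 of the other 7 strains nearer to BALB/cJ. Whether this reflects transcript amount or probe match was not tested. Rps6 read 3.69, 5.10 and 4.74 in BALB/cJ and 6.89, 7.14 and 6.91 in C57BL/6J, and Rps2 read 9.44 to 9.78 in BALB/cJ and 11.34 to 11.56 in C57BL/6J, without overlap.

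**Figure D4:**
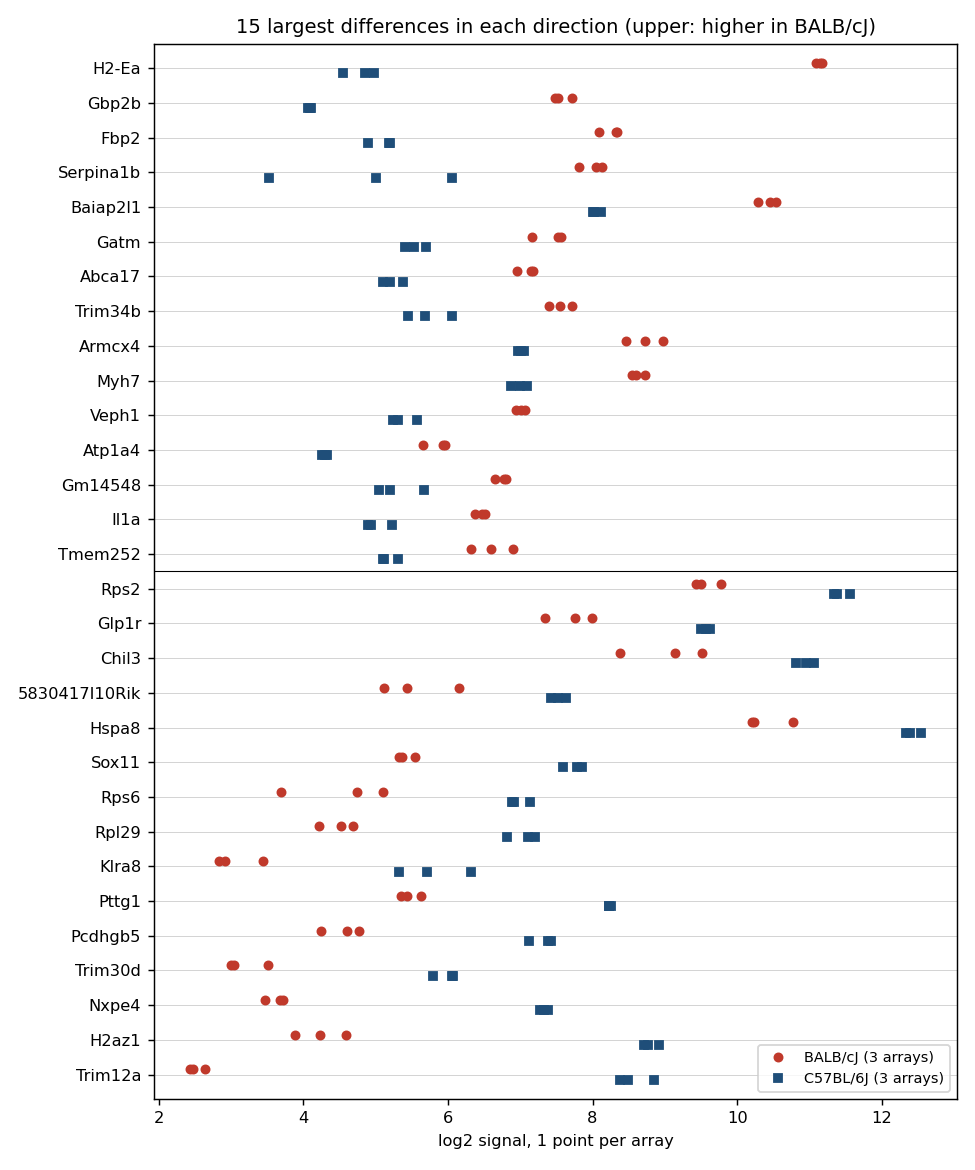
Log2 signal on each array for the 15 genes with the largest differences in each direction, BALB/cJ circles above C57BL/6J squares in each row. In all 30 rows the strains do not overlap; the C57BL/6J arrays of Serpina1b span 3.52 to 6.05.

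The other 7 strains show on which side of the pair a gene is unusual. The C57BL/6J mean lay outside the range of the other strains for 78 of the 119 called genes (65.5%, against 30.2% of all genes), and the BALB/cJ mean for 28 (23.5%, against 18.7%). In 24 called genes (20.2%, against 9.41% of all genes) all 7 other strains were nearer to BALB/cJ, 23 of them genes lower in BALB/cJ. Sox11 was such a gene, with 4.98 to 5.52 over the other strain means, as were Klra8, Pttg1, Hspa8 and Apobec3. Calling selects for a large difference between the BALB/cJ and C57BL/6J means, which by itself raises such shares. The shares of all genes are therefore a description and no test. As the probes follow the C57BL/6J genome, transcript amount and probe match cannot be told apart for genes high in C57BL/6J alone. Nnt, a mitochondrial transhydrogenase of which C57BL/6J is known to lack part, read 8.75, 8.86 and 8.71 in BALB/cJ and 7.65, 7.80 and 7.53 in C57BL/6J (difference 1.11, SE 0.10, adjusted p = 4.58e-08), with 8.22 to 8.84 in the other strains. H2-Ea and Gbp2b each divided the strains, 5 of 7 being nearer to BALB/cJ. Without the arrays labelled C57L/J, an alternative chosen after seeing the data, the C57BL/6J mean lay outside the range of the other 6 strains for 79 called genes and the BALB/cJ mean for 33, all 6 were nearer to BALB/cJ for 28, and 4 of 6 were nearer for H2-Ea and for Gbp2b. By strain, C3H/HeJ was nearer to BALB/cJ for 99 of the 119 genes, A/J for 96 and KK/HlJ for 69. The arrays labelled KK/HlJ had the lowest H2-Ea mean of the other strains (4.88) and the highest Trim12a mean (8.17). No alternative left them out, and the match of arrays to their strain labels was not tested.

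In 4 called genes every other strain was nearer to C57BL/6J, with or without the arrays labelled C57L/J. With all 7 other strains these were 3.36% of the called genes, against 4.61% of all genes, so such genes were not more frequent among the calls. Zhx2, a repressor of fetal liver genes known to carry a retroviral insertion in BALB/cJ, read 5.89, 6.57 and 6.09 in BALB/cJ and 7.62, 7.62 and 7.53 in C57BL/6J (difference -1.41, SE 0.12, adjusted p = 5.05e-08), with 7.51 to 7.92 in the others. Its 7 measured targets did not pass: Afp, alpha-fetoprotein, differed by 0.21 (adjusted p = 0.36) and H19 by 0.83, with 6.15, 6.04 and 6.01 in BALB/cJ and 5.27, 5.13 and 5.33 in C57BL/6J (adjusted p = 0.173). Krt79 had means of 7.60 to 9.47 in the other strains, above every BALB/cJ array, and of at least 7.76 without the arrays labelled C57L/J. Veph1, a pleckstrin homology protein, read 7.01, 6.94 and 7.06 in BALB/cJ and 5.24, 5.58 and 5.31 in C57BL/6J (difference 1.63, SE 0.11), with 5.34 to 5.93 elsewhere. Mfsd2a, a lysophospholipid transporter of type II cells, read 4.76, 4.87 and 5.56 in BALB/cJ and 6.72, 6.40 and 6.62 in C57BL/6J (difference -1.52, SE 0.15), with 6.04 to 7.49 elsewhere.

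**Figure D5:**
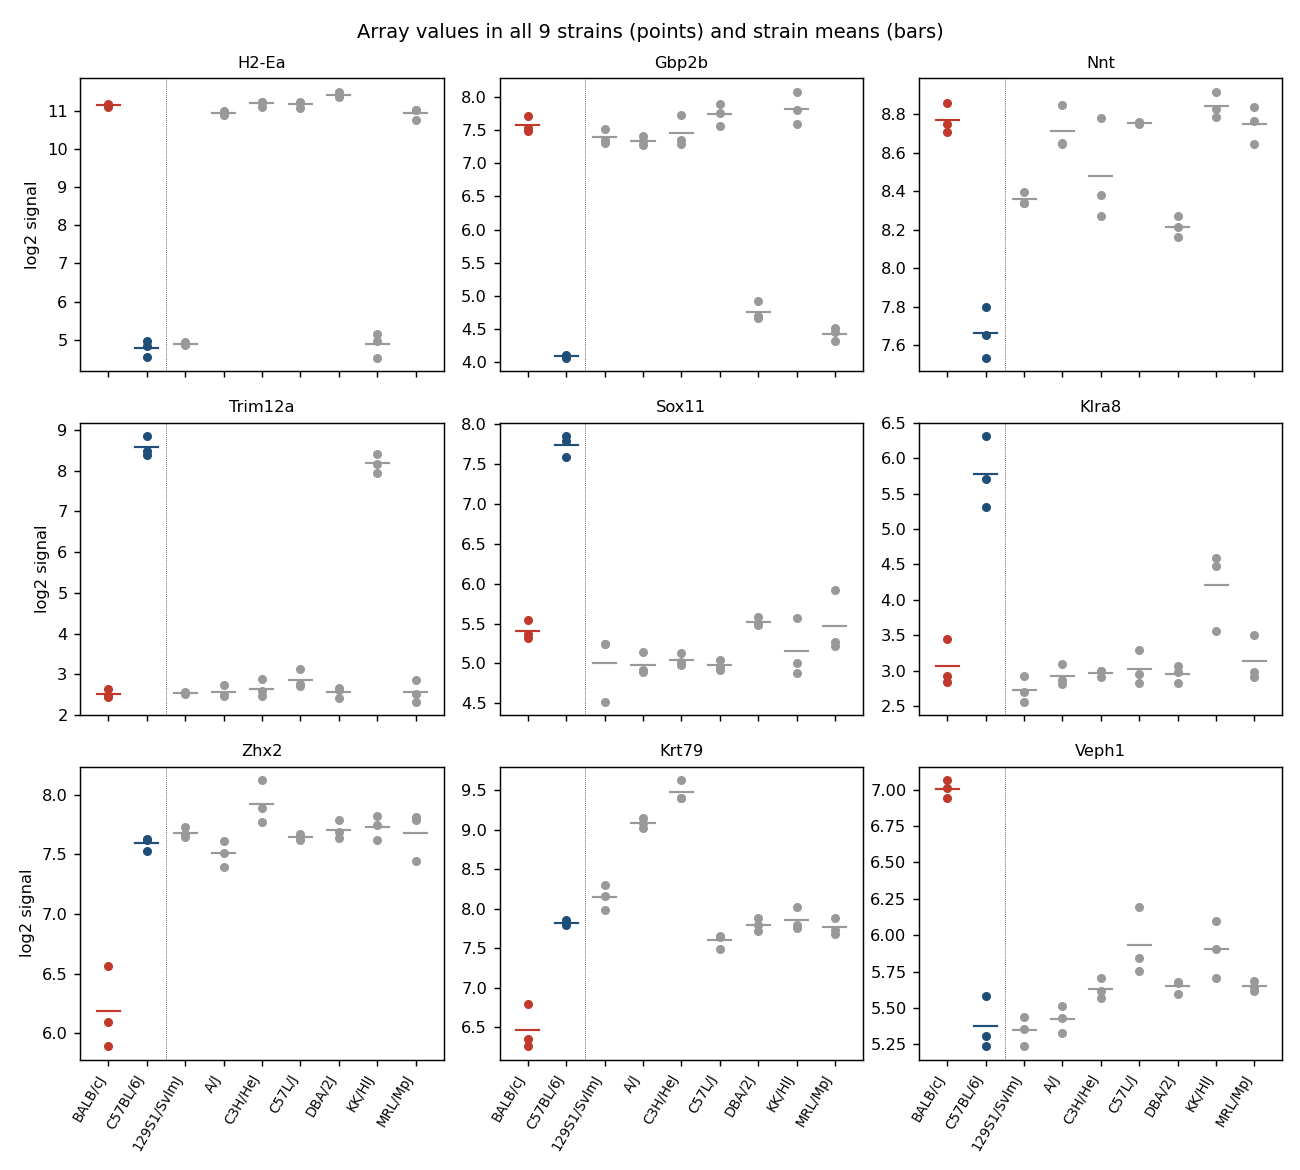
Log2 signal of 9 genes on each array (points) with strain means (bars), BALB/cJ and C57BL/6J at the left of each panel and the other 7 strains to the right; vertical axes differ between panels. Zhx2 and Krt79 are lowest and Veph1 highest in BALB/cJ, and Sox11 and Klra8 are highest and Nnt lowest in C57BL/6J.

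Of 34 measured genes known to vary between BALB and C57BL strains, 6 rose and 5 fell. Alad, an enzyme of heme synthesis, read 9.76, 9.87 and 9.83 in BALB/cJ and 8.52, 8.45 and 8.47 in C57BL/6J (difference 1.34, SE 0.08, adjusted p = 6.01e-11), without overlap. The coat colour genes Tyr and Tyrp1, at which BALB/cJ carries mutant alleles, read 3.04 to 4.05 in BALB/cJ and 3.14 to 3.96 in C57BL/6J and did not pass. Slc11a1, the Nramp1 resistance gene that both strains carry in the susceptible form, differed by -0.18 (adjusted p = 0.436). Fcgr2b, the inhibitory antibody receptor, differed by -0.37 without overlap of arrays (adjusted p = 0.0872).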

How the data were processed

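RNA from the lungs of 27 mice was hybridised to Mouse Gene 1.0 ST arrays. The authors deposited log2 signal of 21225 probe sets. The package affy is listed in the processing notes of the submitters. Its version and the normalization are not given in the sources used here. Values were used as deposited. The probe table names 20239 probe sets and leaves 986 unnamed, and no gene has more than 1 probe set.

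In R 4.3.3 with limma 3.58.1, lmFit was fitted to all 27 arrays with 1 mean per strain. The contrast BALB/cJ minus C57BL/6J was tested with eBayes, with Benjamini-Hochberg adjustment over all named genes. The threshold was an adjusted p of 0.05, and 1 on the log2 scale for a call. The fit was tested on simulated data. With 3 arrays per strain, their number sets the precision.

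Of 1075 entries in 48 gene lists, 965 were on the array. The members and lists were chosen with earlier results of these data known. Named by rule were the 15 largest differences per direction, called list members, otherwise up to 4 members per list with the smallest p, all genes of the list known to vary, neighbouring called genes and defining cell markers. Outside this rule, and chosen after their values were seen, are H2-Aa, Cd74, Ccr4, Il4, Il13, Ifng, Apobec3, Mrc1, Pparg, Cftr, Ccn2, Mki67, Top2a, Mcm2 to Mcm5, Mcm7, Per2, Per3, Clock, Cry1, Tef, Mfsd2a, Retnla and Clca1. Alternatives covered normalization, filters, samples, weights, minimum differences, a replicate block and each replicate left out. Gene chromosomes and promoter windows come from RefSeq GRCm38.p6.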

Additional observations from a re-analysis of the deposited data

How the results depend on the processing

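The 119 calls depend on the minimum difference: 479 genes (168 higher, 311 lower) at a minimum of 1.5-fold, 16 (5 and 11) at a minimum of 2 on the log2 scale and 1361 (591 and 770) with none. Array weights raised the genes passing on the higher side to 1063. Leaving out single arrays of either strain gave 315 to 645 genes higher and 541 to 676 lower, and 121 to 131 calls, and leaving out C3H/HeJ replicate 2 gave 641 higher, 806 lower and 119 calls. Other alternatives called 116 to 128. Replicate numbers did not pair the arrays (correlations of same-numbered deviations 0.0016, 0.0554 and -0.1227), and with the number as a replicate block the 119 calls were the same genes, with 596 higher and 773 lower passing. Of 137 genes named by the rule that passed, 103 did so in the same direction under every alternative that tested them. No gene named by the rule changed direction where it passed in the main fit or in the alternative. Changes of direction without a pass in either fit were not counted. Genes chosen outside the rule were not in this check. Signal within the range of the Y-linked genes (up to 5.34) limits 32 genes called lower, by their BALB/cJ means, and 14 called higher, by their C57BL/6J means, H2-Ea among them. With Sry left out of the range (up to 3.69), it limits 7 called lower and 0 called higher. The causes were not tested.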

Other observations

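Protocadherin genes of the gamma and beta clusters, adhesion proteins that share exons within a cluster, fell in 7 of 22 cases and rose in 1, with a median of -0.20. Pcdhgb5 read 4.24, 4.61 and 4.77 in BALB/cJ and 7.12, 7.38 and 7.42 in C57BL/6J (difference -2.77, SE 0.35, limma adjusted p = 1.24e-05), and Pcdhgb6 fell by 0.91. Among 44 xenobiotic and glutathione enzymes 6 fell and 1 rose. Gsto1, a glutathione transferase, read 8.09, 8.29 and 8.30 in BALB/cJ and 9.39, 9.44 and 9.44 in C57BL/6J (difference -1.20, SE 0.12, adjusted p = 3.34e-07), and Gclc, the first enzyme of glutathione synthesis, fell by 0.73. Without C57BL/6J replicate 3 the count of 6 was 2. Of 21 lung tumour candidates Fgfr4 rose by 0.55, Marco fell by 1.02 and Cd44 by 0.32. Casc1 differed by -0.34 (adjusted p = 0.102) and Cdkn2a by 0.15 (adjusted p = 0.46). Of 15 skeletal muscle and 10 adipocyte genes 0 passed in limma, and 0 had an unadjusted p under 0.05, beside 3814 of all 20239 genes. Of 19 heat shock and immediate early genes Hspa8 alone passed.

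A pair of type 2 effector genes varied among BALB/cJ mice more than between the strain means. Retnla, the resistin-like molecule of alternatively activated macrophages and epithelium, read 7.87, 10.21 and 10.20 in BALB/cJ and 9.47, 9.47 and 9.32 in C57BL/6J. Clca1, a goblet cell protein, read 5.03, 7.71 and 8.37 in BALB/cJ and 6.60, 5.71 and 5.33 in C57BL/6J. BALB/cJ replicate 1 was the lowest of the 6 arrays for both genes, and the strains overlap (adjusted p = 0.996 and 0.258). Among the 986 probe sets without a gene name, 20 passed as higher and 34 as lower in BALB/cJ, with 4 and 5 called.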
